A study of Mus musculus with 11 samples.

Results

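The granzymes Gzma, Gzmb, Gzmk and Gzmm and 6 other cytotoxic effector genes, Prf1, Nkg7, Fasl, Ifng, Eomes and Tbx21, were followed in single-cell transcriptomes of mouse lung. They are 10 of the 31053 genes in the deposited matrices, were matched by gene symbol, and were all found. Granzymes are serine proteases kept in the secretory granules of killer lymphocytes. On contact with a target cell, perforin (Prf1) opens its membrane to them. Natural killer (NK) cells and CD8 T cells are the main users of this route. Fas ligand (Fasl) is a second, granule-independent way to trigger death, interferon-gamma (Ifng) is the cytokine that these cells share, and T-bet (Tbx21) and Eomes are the paired T-box transcription factors under which these genes are switched on.

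Lungs of 4 genotypes were dissociated and sequenced with droplet-based 3′ chemistry (10x Genomics), with 1 WT library (wild type, +/+), 3 p21Het libraries (p21 heterozygotes, +/-), 5 p21mTert libraries (+/mTert) and 2 p21mTertCD libraries (+/mTertCD). By the genotype labels, every group but WT carries 1 wild-type p21 allele beside another allele. By the title, mTert, the mouse telomerase gene, is induced in p21-positive cells, and the labels do not spell out CD. The age label was 18 months, except for p21Het_1 at 19 and p21mTert_1 at 20, whose titles give 18. A library's name joins its genotype and its replicate, and nothing in the labels says whether each came from a separate animal, so p-values measure the spread between libraries.

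The libraries held 42038434 to 85988955 UMIs (unique molecular identifiers, 1 per captured RNA molecule). Of 81983 barcodes, 69267 passed the filter of 1000 to 30000 UMIs and at most 14% mitochondrial UMIs. WT_1, p21Het_1 and p21mTert_1 were deposited earlier, with a median mitochondrial share of 6.30% to 6.58%, against 2.82% to 4.28% in the 8 later libraries. Any 2 libraries shared 9 to 83 cell barcodes (median 23). The library p21mTertCD_1 stood apart: 2.50% of its cells were gated as B cells, against 14.5% to 39.3% elsewhere, and 11.9% as CD4 T cells. The library p21mTertCD_2 stood apart in its CD8-gated cells, of which 54.4% carried at least 2 UMIs of NK receptor genes, against 11.6% to 30.7% in the other libraries. Values without each of these libraries are given for the results that turn on them.

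Cells were gated on marker genes that include none of the 10: CD3 genes with Cd8a or Cd8b1 (CD8-gated, 5838 cells), CD3 genes with Cd4 (CD4-gated, 3329), Trdc (gamma-delta-gated, 712), other CD3-positive cells (3810), NK receptor genes without Cd3d or Cd3e (NK-gated, 1245), B cell genes (B-gated, 15701) and all others (38632). Levels of the gating genes follow from the gates and are no check of cell identity. Cd8b1 was at 546 to 899 CPM (UMIs of the gene per 1000000 UMIs of the library's gated cells) in CD8-gated cells and Ncr1 at 379 to 689 CPM in NK-gated cells, while Cd4 was at 0 in the former and Cd3d in the latter, as the gates require. The T and NK gates also limited the summed UMIs of Cd79a, Ms4a1, Csf1r, Cldn5, Cdh5, Col1a2 and Epcam in a cell. Markers of other lineages were also counted. The sums for B cells, macrophages and monocytes, endothelium, fibroblasts and alveolar epithelium include these limited genes. Those sums are thus partly held down by the gates. In CD8-gated cells, the summed level of the markers of fibroblasts was 1.32 to 20.9 CPM, of endothelium 8.76 to 61.5, of dendritic cells 0.261 to 3.501 and of mast cells and basophils 0 to 5.50 CPM. That of type 2 innate lymphoid cells was 101 to 209 CPM, of B cells 68.8 to 532, of macrophages and monocytes 109 to 619.96, of neutrophils 20.2 to 1623, of alveolar epithelium 242 to 1738 and of erythroid cells 36.1 to 4346 CPM. In NK-gated cells the highest sums were 8450.4 CPM for erythroid cells, 2204 for neutrophils, 1482 for B cells and 1170 for alveolar epithelium. In CD4-gated cells they were 5104 for erythroid cells, 2082 for neutrophils, 1473 for alveolar epithelium and 878 for macrophages and monocytes. These sums varied widely between libraries of the same genotype. The part of RNA from other cells in the results was not tested.

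The 4 granzymes are the genes on which the comparison of gates turns, so the 250 bases before their RefSeq transcription starts are shown (GRCm38.p6), 5′ to 3′ on the gene's own strand. Gzma and Gzmk lie on chromosome 13, Gzmb on chromosome 14 and Gzmm, with 2 starts in RefSeq, on chromosome 10. Capitals mark exact matches, on either strand, to a T-box core (GTGTGA or TCACAC), the kind of motif that T-bet and Eomes recognise, and to a RUNX core (TGTGGT or ACCACA).
Gzma (chr13:113100982-113101231, minus strand): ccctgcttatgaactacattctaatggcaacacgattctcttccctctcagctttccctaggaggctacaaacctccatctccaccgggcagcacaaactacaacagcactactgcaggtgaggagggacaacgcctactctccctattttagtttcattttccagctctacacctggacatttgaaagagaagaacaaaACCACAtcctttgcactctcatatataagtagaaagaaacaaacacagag
Gzmb (chr14:56262335-56262584, minus strand): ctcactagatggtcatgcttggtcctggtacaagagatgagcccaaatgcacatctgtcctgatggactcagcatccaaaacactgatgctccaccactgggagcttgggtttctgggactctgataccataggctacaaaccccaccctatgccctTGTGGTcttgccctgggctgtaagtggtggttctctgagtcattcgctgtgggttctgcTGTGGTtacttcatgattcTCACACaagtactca
Gzmk (chr13:113180966-113181215, minus strand): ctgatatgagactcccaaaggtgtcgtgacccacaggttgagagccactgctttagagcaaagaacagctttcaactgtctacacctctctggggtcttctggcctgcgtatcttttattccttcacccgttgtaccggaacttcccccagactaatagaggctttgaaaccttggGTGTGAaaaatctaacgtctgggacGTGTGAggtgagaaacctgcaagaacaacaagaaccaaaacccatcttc
Gzmm, first start (chr10:79688770-79689019, plus strand): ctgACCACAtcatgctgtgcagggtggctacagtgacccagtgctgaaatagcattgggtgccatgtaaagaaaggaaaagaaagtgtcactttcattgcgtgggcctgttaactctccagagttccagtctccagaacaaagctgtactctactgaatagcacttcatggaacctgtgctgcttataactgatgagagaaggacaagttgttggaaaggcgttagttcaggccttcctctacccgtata
Gzmm, second start (chr10:79693576-79693825, plus strand): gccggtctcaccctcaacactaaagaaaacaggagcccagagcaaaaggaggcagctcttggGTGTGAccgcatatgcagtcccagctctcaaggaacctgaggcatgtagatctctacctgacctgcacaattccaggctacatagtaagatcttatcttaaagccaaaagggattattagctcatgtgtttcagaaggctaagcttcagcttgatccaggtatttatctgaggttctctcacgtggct

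The windows of all 10 genes were in the table, and 12.3% of 32851 mouse promoter windows of this length hold the T-box core and 14.0% the RUNX core. The motifs share the letters TGTG, and none of the marked matches overlap. The Gzmk window has 2 T-box matches, 74 and 49 bases before the start, and no RUNX match. The Gzmb window has 1 T-box match, 15 bases before the start, and 2 RUNX matches, at 93 and 34 bases. The Gzma window has a RUNX match at 50 bases. The Gzmm windows have a RUNX match at the first start and a T-box match at the second. Of the other genes, Nkg7 has 1 match of each motif and Prf1 has 1 RUNX match, while the windows of Fasl, Ifng, Eomes and Tbx21 have none. A match describes the letters of a window and is not evidence of binding.

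The first comparison asked which cells carry the effectors. Gzma was a gene of NK-gated cells and Gzmm of CD8-gated cells, Gzmk was shared by CD8- and CD4-gated cells and nearly missing from NK-gated cells, and the remaining genes fell in steps from NK- to CD8- to CD4-gated cells, except that Ifng was about as high in the CD4 gate as in the CD8 gate. Of 91590 Gzma UMIs in filtered cells, 70.2% came from NK-gated cells, which are 1245 of the 69267 cells. Of 6941 Gzmm UMIs, 81.9% came from CD8-gated cells, and of 7835 Gzmk UMIs, 60.5% came from CD8-gated, 18.7% from CD4-gated and 0.140% from NK-gated cells. The source of Gzmb differed between libraries: NK-gated cells gave 12.3% to 74.0% of a library's Gzmb UMIs and CD8-gated cells 7.04% to 75.4%. NK-gated cells gave more Gzmb than CD8-gated cells in 7 of 11 libraries, and less in p21mTert_2, p21mTert_5 and both p21mTertCD libraries. NK-gated cells gave more Prf1 in 9 of 11 libraries, all but the p21mTertCD ones, and more Gzma in 10 of 11, all but p21mTertCD_1. CD8-gated cells gave more Nkg7 in all libraries but p21Het_1.

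**Figure D1:**
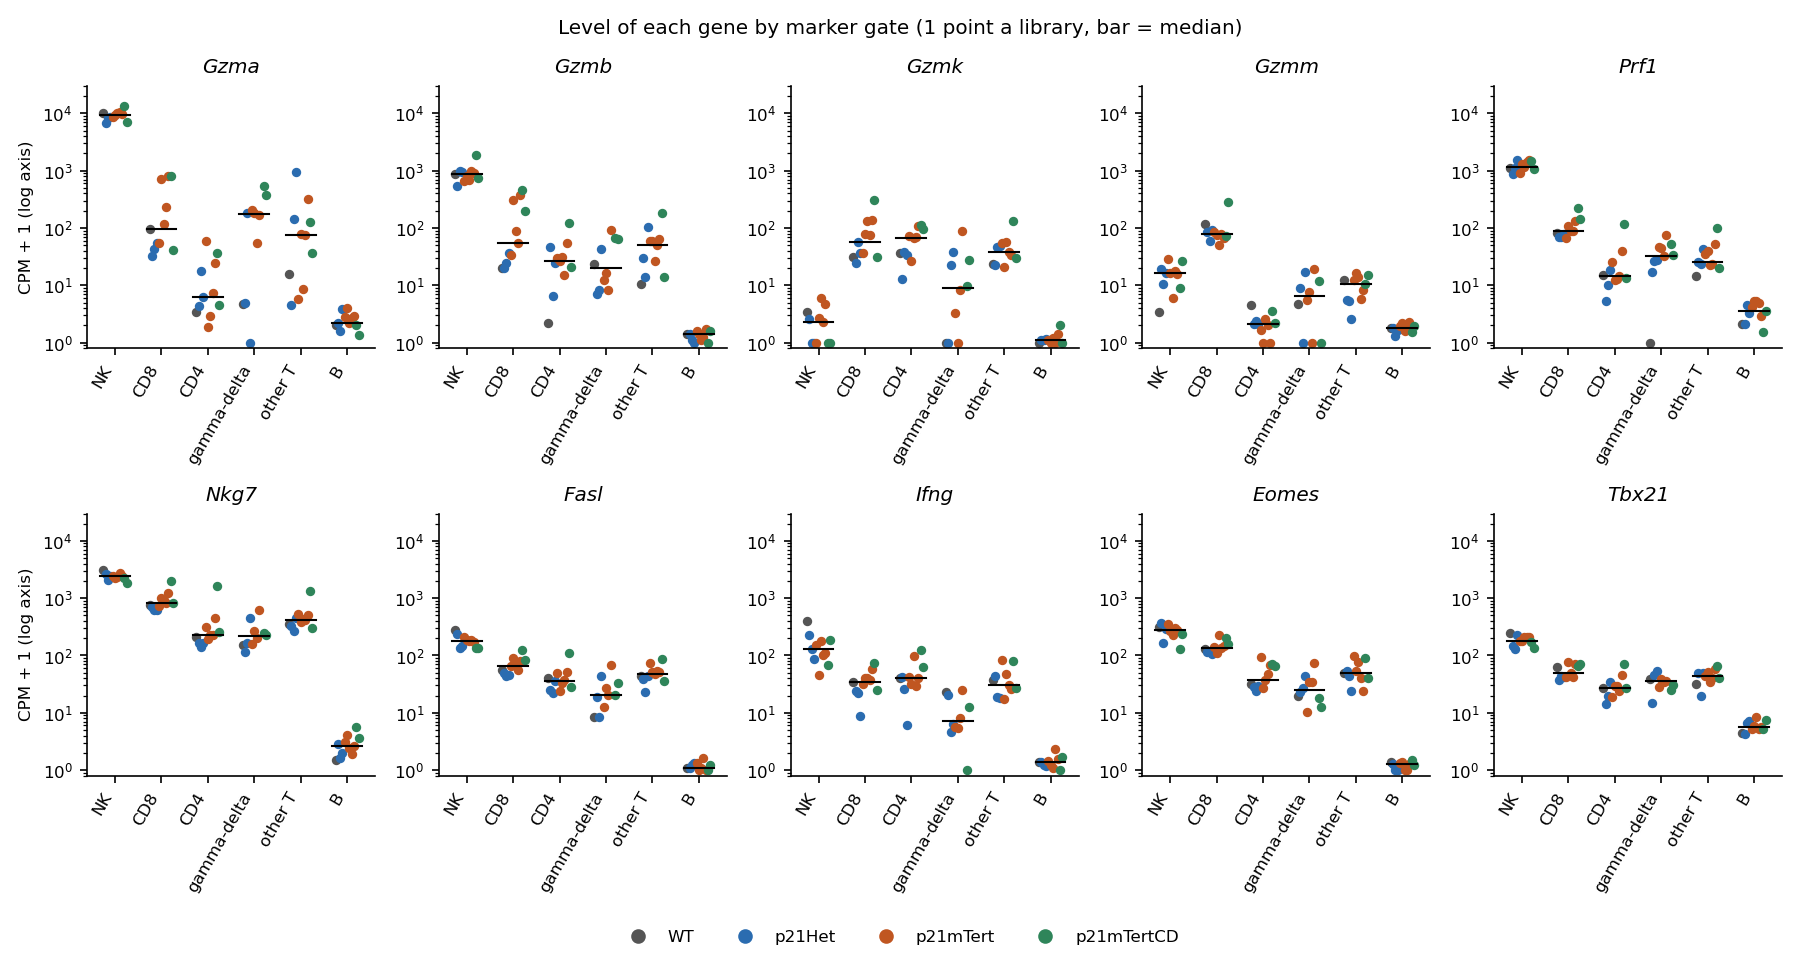
CPM plus 1 (log axis) for each of the 10 genes in 6 marker gates, with 1 point for each library of at least 20 gated cells, coloured by genotype, and a bar at the median. Gzma in NK-gated cells sits at 6673 CPM or more in every library, and Gzmk in NK-gated cells at 4.95 CPM or less.

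Granzyme A, an abundant tryptase of NK granules, ran from 6673 to 13171 CPM in NK-gated cells over the 11 libraries, with a median of 9213. In CD8-gated cells its range was 31.8 to 816 CPM, with a median of 94.7, and in CD4-gated cells 0.864 to 57.9 CPM, with a median of 5.15. NK-gated and CD8-gated levels did not overlap, and the CD8 levels spread widely between libraries. Gamma-delta-gated cells had a median of 174 CPM of Gzma, and they and CD8-gated cells did not keep an order: the former were higher in 3 of 10 libraries. Very few cells set these gamma-delta levels: in p21mTert_1, 1.15% of 87 cells held all 89 Gzma UMIs. On average over 11 libraries, 3.30% of gamma-delta-gated cells had a Gzma UMI, against 11.1% of CD8-gated cells. Background in B-gated cells, which should lack granzymes, had a median of 1.23 CPM of Gzma.

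Granzyme B, the protease that cuts caspases and starts apoptosis, ran from 540.3 to 1880 CPM in NK-gated cells, with a median of 859. It ran from 19.0 to 452 CPM in CD8-gated cells, with a median of 54.1, and from 1.18 to 122 CPM in CD4-gated cells, with a median of 25.9. The NK level was above the CD8 level in 11 of 11 libraries. The CD8 level was above that of other T cells in 8 of 11, so these neighbours in the order were not separated in every library.

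Granzyme K, a tryptase found in memory-like T cells, followed another order. It ran from 12.1 to 113 CPM in CD4-gated cells, with a median of 66.9, and from 23.3 to 309 CPM in CD8-gated cells, with a median of 55.1. NK-gated cells had 0 to 4.95 CPM, and 5 of the 11 NK sums held no Gzmk UMI, which allows up to 4.66 to 7.84 CPM in those libraries by counting error alone. CD8-gated cells exceeded CD4-gated cells in 8 of 11 libraries although the median of the latter is higher, so the order of these 2 gates was not settled.

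Granzyme M, which cuts after methionine and leucine, ran from 49.3 to 282 CPM in CD8-gated cells, with a median of 77.3, and from 2.36 to 28.2 CPM in NK-gated cells, with a median of 15.3. In CD4-gated cells it stayed at 0 to 3.53 CPM, with a median of 1.14, near the 0.812 CPM of B-gated cells. The CD8 level was above the NK level in 11 of 11 libraries. Other T cells and NK-gated cells were not separated, with the latter higher in 7 of 11.

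Perforin, the pore former, ran from 889.7 to 1532 CPM in NK-gated cells (median 1144), from 66.6 to 226 in CD8-gated cells (median 86.8) and from 4.40 to 117 in CD4-gated cells (median 13.5). The 3 ranges overlapped only through the CD4-gated cells of p21mTertCD_1. Nkg7, a membrane protein of cytotoxic granules needed for their release, ran from 1871 to 3151 CPM in NK-gated cells (median 2439), from 613 to 2028 in CD8-gated cells (median 827) and from 137 to 1614 in CD4-gated cells (median 222). Without p21mTertCD_1 the highest CD4 value of Nkg7 was 440.5 CPM and the highest CD8 value 1241 CPM.

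Fasl ran from 132 to 274 CPM in NK-gated cells (median 178) and from 42.5 to 124 CPM in CD8-gated cells (median 63.3). Ifng ran from 45.1 to 397 CPM in NK-gated cells (median 128), from 5.15 to 124 in CD4-gated cells (median 40.1) and from 7.95 to 74.1 in CD8-gated cells (median 33). The CD4 gate was higher than the CD8 gate in 7 of 11 libraries for Ifng. Of the T-box factors, Eomes ran from 131 to 366 CPM in NK-gated cells (median 281) and from 106 to 228 in CD8-gated cells (median 132), and Tbx21 from 130.1 to 243 (median 179.5) and from 36.3 to 75.0 (median 47.7). The level of Tbx21 in B-gated cells, 4.60 CPM at the median, was higher than in the cells outside all named gates in 11 of 11 libraries, and 6.33% of all Tbx21 UMIs came from B-gated cells.

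When every cell was thinned to 1000 UMIs, Gzma was seen in 84.5% of NK-gated cells (mean over libraries) and in 0.216% of B-gated cells, and Nkg7 in 85.7% and 0.314%. At full depth these shares were 87.6% and 0.886% for Gzma, with median depths of 4816 UMIs in NK-gated and 4227 in B-gated cells. In CD8-gated cells, whose median depth was 7790 UMIs, the shares at full depth and after thinning were 90.5% and 51.9% for Nkg7, 24.8% and 10.4% for Gzmb, 24.5% and 8.40% for Gzmk, and 26.1% and 6.76% for Gzmm. For Gzmk in B-gated cells they were 0.171% and 0.00389%. Gzmk was thus seen in a larger share of CD8-gated than of B-gated cells at both depths, and Nkg7 after thinning.

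Gates were compared within libraries by edgeR's quasi-likelihood test with the library as a block and Benjamini-Hochberg adjustment over all genes tested. Between NK- and CD8-gated cells, 3782 of 8386 genes (45.1%) were called at an adjusted p under 0.05, 23.0% higher and 22.1% lower, and all 10 members passed the filter. Gzmk and Gzmm passed it only through the CD8 gate, where they are high, and are left out of the count. The other 8 members were all called higher in NK-gated cells. Gzma was higher in NK-gated cells by 5.91 ± 0.44 on the log2 scale (SE, adjusted p = 2.41e-09, higher in 11 of 11 libraries). Prf1 was higher by 3.38 ± 0.11 (adjusted p = 1.68e-14) and Gzmb by 3.17 ± 0.39 (adjusted p = 1.5e-06). Ifng was higher by 1.80, Tbx21 by 1.55, Nkg7 by 1.21, Fasl by 1.20 and Eomes by 0.67, in 9 to 11 of 11 libraries. Gzmm, left out of the count, fell by 2.84 on the log2 scale, with an SE of 0.16 (lower in 11 of 11). It had 1 UMI in NK-gated cells of WT_1 and 3 in p21mTert_3. Gzmk had a log2 fold change of -5.83 ± 0.22. Thinning all cells to 1000 UMIs left 1127 genes called and 9 members, without Gzmk, which no longer passed the filter. The share of all genes called after thinning is not reported here, so these 9 have no background beside them.

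Between CD8- and CD4-gated cells, 3598 of 9199 genes (39.1%) were called, 18.8% higher and 20.3% lower. Gzmm, Gzma and Gzmb passed the filter only through the CD8 gate, where they are high, and are left out of the calls. In CD4-gated cells of WT_1, Gzma had 2 UMIs and Gzmb 1. The log2 fold changes were 6.07 ± 0.19 for Gzmm, 4.02 ± 0.51 for Gzma (SE, higher in 10 of 11 libraries) and 2.03 ± 0.31 for Gzmb. Of the other members, none was called lower. Prf1 was called higher in CD8-gated cells by 2.46 ± 0.22, Nkg7 by 1.92 ± 0.15, Eomes by 1.87 ± 0.15, Tbx21 by 1.02 ± 0.15 and Fasl by 0.98 ± 0.14. The exceptions were Gzmk, at 0.49 ± 0.24 (adjusted p = 0.118), and Ifng, at -0.24 ± 0.17 (adjusted p = 0.278), for which no difference between these gates could be called. Gzmk was called higher in CD8-gated cells after thinning to 1000 UMIs (0.76, adjusted p = 0.00347) and without p21mTertCD_2, and without p21mTertCD_1 its value was 0.31 (adjusted p = 0.297). With no filter on low counts it was called too (0.53, adjusted p = 0.000403). Whether Gzmk was called thus depended on depth, on the filter and on single libraries.

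**Figure D2:**
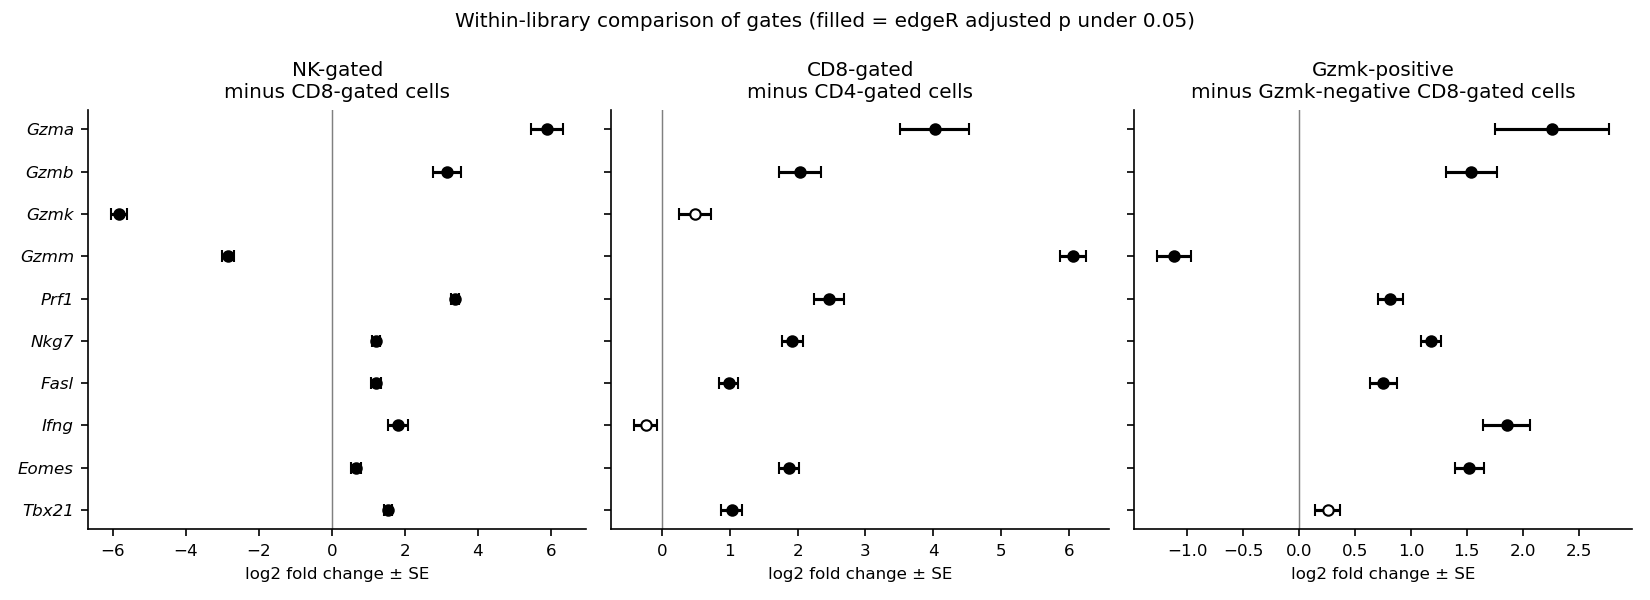
Log2 fold change with its standard error for each gene, from 3 within-library comparisons over 11 libraries, with filled points for an adjusted p under 0.05. Gzmk and Gzmm lie left of 0 between NK- and CD8-gated cells, where the other 8 genes lie right of it.

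Genes of the same pathways, from lists chosen by function, were read in the same fits. None of the 6 further granzymes (Gzmc to Gzmg and Gzmn) passed the filter in the comparisons between gates. Of 11 genes for granule making and release, 8 were called higher in NK- than CD8-gated cells and none lower, with Serpinb9, an inhibitor that shields the killer cell from its own granzyme B, higher by 3.01 ± 0.18 (624 against 74.3 CPM). Serpinb6b was higher by 2.53 ± 0.16 and Stx11, a syntaxin of granule fusion, by 1.55 ± 0.19. All 4 chemokines of killer cells were called higher, led by Ccl3 at 3.42 ± 0.34 and Ccl4 at 2.68 ± 0.21. The 4 killer cell receptors are not read here, since the NK gate rests on other NK receptor genes (Ncr1, Klrb1c, Klre1, Klri2 and Klra genes). Of 11 upstream receptors and factors, 9 were called higher and 1 lower, with Il12rb2, the signalling chain of the interleukin-12 receptor, at 3.30 ± 0.19 and Zeb2 at 2.63 ± 0.18. Of 7 naive and memory T cell genes, 2 were called higher and 5 lower, among them Il7r at -3.38 ± 0.18 and Ccr7 at -3.36 ± 0.48. Fas, the receptor of Fas ligand, was lower in NK-gated cells (-2.55 ± 0.19), and 3 of 4 interferon-gamma receptor and response genes that passed the filter were called lower, with Ifngr1 called higher at 0.82 ± 0.07.

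Between CD8- and CD4-gated cells, 5 of the 11 granule genes were called higher and 4 lower. Ctsw, a cathepsin of cytotoxic cells, was higher by 2.21 ± 0.19, and Stx11 was lower at -2.06 ± 0.18. Of the chemokines, Ccl5, Ccl4 and Xcl1 were called higher, with Ccl5 at 3.04 ± 0.21. Klrd1 was higher by 3.20 ± 0.28, Klrc1 by 2.62 ± 0.29 and Klrk1 by 2.08 ± 0.22. The cytokines Lta (-2.08 ± 0.25) and Tnf (-1.24 ± 0.16) were lower in CD8-gated cells. The upstream list was split, with 3 called higher, among them Runx3 at 0.94 ± 0.13, and 3 lower, among them Tox at -0.85 ± 0.18.

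The next comparison asked which effectors accompany Gzmk inside the CD8 gate. CD8-gated cells with a Gzmk UMI had more of 7 other effectors and less Gzmm than CD8-gated cells without one. Gzmk itself split the cells and was not tested. Of 8263 genes, 2145 (26.0%) were called, 12.9% higher and 13.1% lower, and 8 of the 9 other members were called, 7 higher and 1 lower. The median log2 fold change was 1.18 over the members and near 0 over all genes. A UMI is caught more readily in a deeper cell. The fit was therefore repeated on sums of cells thinned to 1000 UMIs. The split itself still used Gzmk at full depth, so depth was not removed from the choice of cells. The thinned sums left 490 genes called, and the same 8 members, and the share of all genes that this makes is not reported here.

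Eomes, the factor linked to memory-like killer cells, ran from 172 to 539 CPM in Gzmk-positive cells (median 331) and from 82.4 to 145 CPM in Gzmk-negative cells (median 91.7). The 2 ranges did not overlap. The log2 fold change was 1.52 ± 0.13 (SE, adjusted p = 1.3e-08, 11 of 11 libraries). Nkg7 ran from 1354 to 2167 CPM (median 1729) and from 505 to 1551 CPM (median 619.7), a log2 fold change of 1.18 ± 0.09 (adjusted p = 4.54e-09, 11 of 11). Ifng ran from 20.8 to 158 CPM (median 93.0) and from 6.47 to 70.6 CPM (median 18.6), a log2 fold change of 1.86 ± 0.21 (adjusted p = 5.77e-07, 11 of 11). The ranges of Nkg7 and Ifng overlapped between libraries, although within each library the Gzmk-positive cells were higher.

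Gzmb was higher by 1.54 ± 0.23 (adjusted p = 1.78e-05, 11 of 11 libraries) and Gzma by 2.27 ± 0.51 (adjusted p = 0.00174, 9 of 11), with Gzma at 0 to 1896 CPM in Gzmk-positive cells. Prf1 was higher by 0.82 ± 0.11 (10 of 11) and Fasl by 0.75 ± 0.12 (11 of 11). Gzmm was lower, at -1.12 ± 0.15 (adjusted p = 5.52e-06, lower in 10 of 11), with a median of 59.8 CPM against 86.6. Tbx21 had 0.26 ± 0.11 (adjusted p = 0.101) and was called only in some alternatives, such as without p21mTertCD_1, where its value was 0.37 (adjusted p = 0.0107). In this split Eomes was thus called higher with Gzmk, and Tbx21 was not.

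Around these members, all 4 chemokines were called higher in Gzmk-positive cells, with Ccl3 at 3.02 ± 0.45, Ccl4 at 2.31 ± 0.24, Xcl1 at 1.96 ± 0.29 and Ccl5 at 1.23 ± 0.11. Of the 11 granule genes, 6 were called higher and none lower, among them Stx11 at 2.13 ± 0.20 and Rab27a, a GTPase of granule docking, at 1.05 ± 0.13. Of the 7 naive and memory genes, 5 were called lower, among them Ccr7 at -3.27 ± 0.21 and Lef1 at -1.77 ± 0.14, and Pdcd1, the PD-1 receptor, was called higher at 2.94 ± 0.36. Tox, a factor of chronically stimulated T cells, was higher by 2.53 ± 0.21 (229 against 35.5 CPM) and Klrg1 by 2.87 ± 0.31. Ifngr2, the second chain of the interferon-gamma receptor, was lower at -3.36 ± 0.33, with a mean of 2.47 CPM against 31.3, in 11 of 11 libraries.

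Single cells were also counted by which granzyme they showed, after thinning to 1000 UMIs. In WT_1, 3.56% of CD8-gated cells had a Gzmk UMI and 1.43% a Gzmb UMI. In p21Het_1 to p21Het_3 the shares with Gzmk were 2.72%, 5.49% and 4.39%, and with Gzmb 2.04%, 2.39% and 3.45%. In p21mTert_1 to p21mTert_5 they were 4.49%, 8.71%, 10.2%, 8% and 14.6% for Gzmk and 3.66%, 26.3%, 4.74%, 3.25% and 26.9% for Gzmb. In p21mTertCD_1 and p21mTertCD_2 they were 26.3% and 4.01% for Gzmk and 25.9% and 14.5% for Gzmb. Set against the highest WT or p21Het share, p21mTert_4 was above it for Gzmk alone, and p21mTert_1 and p21mTertCD_2 for Gzmb alone. The libraries p21mTert_2, p21mTert_3, p21mTert_5 and p21mTertCD_1 were above it for both. For Gzmb, p21mTert_1 and p21mTert_3 were only slightly above, at 3.66% and 4.74% against 3.45%.

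Cells with both granzymes were few, from 0.166% of CD8-gated cells in p21mTert_1 to 8.73% in p21mTertCD_1 (87 of 997 cells). In p21mTert_2 they were 3.44% (28 of 815 cells), beside a product of the 2 single shares of 2.29%. In p21mTertCD_1 that product was 6.80%. The next shares cover the 9 libraries with enough cells holding a Gzmb UMI, so WT_1 and p21Het_1 are left out. Cells with a Gzmb UMI more often had a Gzma UMI as well, 37.3% ± 14.9 against 5.03% ± 5.01 of cells without Gzmb (SD over these 9 libraries), and they were higher in 9 of 9. Eomes did not follow Gzmb in this way: 14.6% ± 12.9 of cells with a Gzmb UMI and 13.3% ± 4.28 of those without had an Eomes UMI, and the former were higher in 3 of 9 libraries.

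**Figure D3:**
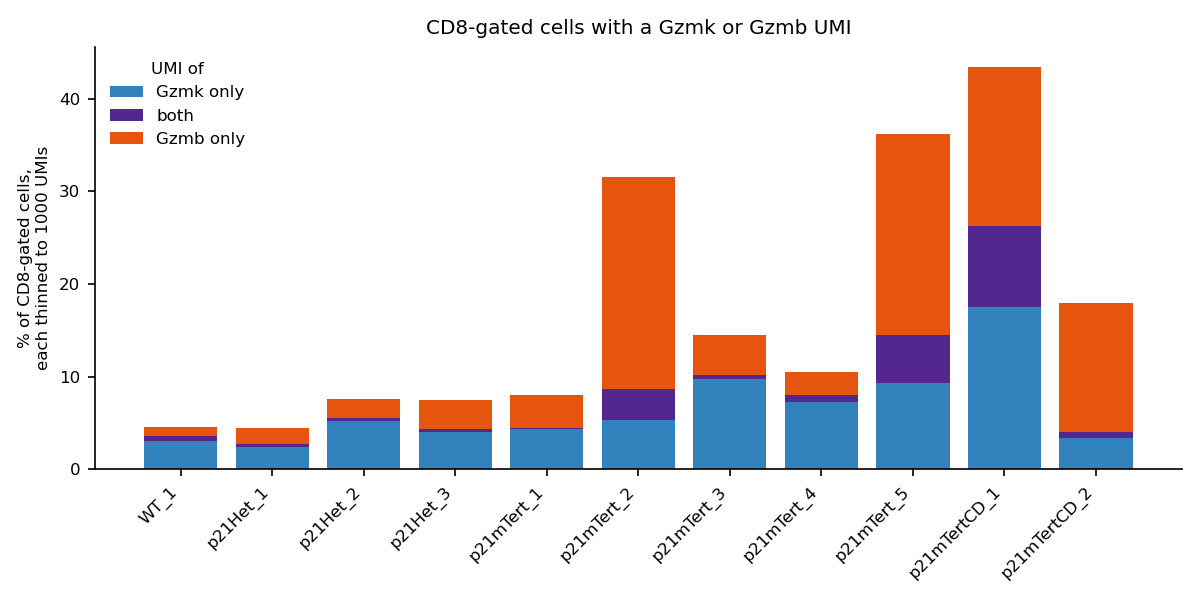
Percent of CD8-gated cells with a UMI of Gzmk only, of both or of Gzmb only in each of the 11 libraries, with each cell thinned to 1000 UMIs. The 3 tallest bars are p21mTertCD_1, p21mTert_5 and p21mTert_2, and the WT and p21Het bars are among the shortest.

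The genotypes were compared in CD8-gated cells first. With edgeR and the filter on low counts, no member was called in any of the 3 contrasts. For p21mTert minus p21Het, 9 of 10 members had a log2 fold change above 0, beside 49.9% of all genes tested. Of these, 3 members, Nkg7, Fasl and Ifng, were higher without overlap between the 5 p21mTert and 3 p21Het libraries, beside 2.42% of all genes. All 10 members had one above 0 for p21mTertCD minus p21Het, beside 48.5% of all genes. Both p21mTertCD libraries were above every p21Het library for 7 members, beside 13.3% of all genes, while Gzma, Gzmk and Gzmm were high in 1 of the 2 only. Over the 10 replicated libraries, edgeR's quasi-likelihood test called 0 of 10323 genes (0%) for p21mTert minus p21Het, 2 (0.0194%) for p21mTert minus p21mTertCD and 6 (0.0581%) for p21mTertCD minus p21Het. At an unadjusted p under 0.05 the numbers were 379, 1108 and 1426 genes, and 5, 4 and 10 members. DESeq2 called 4 (0.0387%), 111 (1.08%) and 181 genes (1.75%), with 0, 2 and 4 members among them.

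Gzma in CD8-gated cells was at 31.8, 41.9 and 54.1 CPM in p21Het, at 53.7, 723, 117, 235 and 816 CPM in p21mTert, at 806 and 40.2 CPM in p21mTertCD and at 94.7 CPM in WT. Of the p21mTert libraries, p21mTert_2 and p21mTert_5 were far above the rest, and p21mTert_3 and p21mTert_4 were also above every p21Het library. The library p21mTert_1 was within the p21Het range, so the groups overlapped. Between p21mTert and p21Het it was 3.12 ± 1.02 on the log2 scale (SE, edgeR adjusted p = 0.999). Within the later deposit it was 3.22 (adjusted p = 0.998).

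Gzmb was at 19.3, 23.6 and 34.8 CPM in p21Het, at 32.7, 310.4, 88.8, 54.1 and 382 CPM in p21mTert, at 452 and 193 CPM in p21mTertCD and at 19.0 CPM in WT. The libraries that were high for Gzma in p21mTert were also high for Gzmb, while p21mTertCD_2 was high for Gzmb, with Gzma within the p21Het range. Its log2 fold change was 2.68 ± 0.77 for p21mTert minus p21Het (adjusted p = 0.999) and 3.58 ± 0.87 for p21mTertCD minus p21Het (adjusted p = 0.135). With no filter on low counts Gzmb was called for p21mTert minus p21Het (adjusted p = 0.0344), where 0.0423% of genes were. Against p21Het, p21mTertCD was at 2.89 without p21mTertCD_1 (adjusted p = 0.336) and at 4.03 without p21mTertCD_2 (adjusted p = 0.0148).

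Gzmk was at 23.3, 55.1 and 35.2 CPM in p21Het, at 36.3, 76.4, 130.5, 75.3 and 138 CPM in p21mTert, at 309 and 30.0 CPM in p21mTertCD and at 29.9 CPM in WT. In p21mTert, 4 of 5 libraries were above every p21Het library. Its log2 fold change was 1.19 ± 0.65 for p21mTert minus p21Het (adjusted p = 0.999). Gzmm was at 83.4, 57.1 and 91.7 CPM in p21Het, at 85.5, 73.9, 49.3, 77.3 and 66.8 CPM in p21mTert, at 71.7 and 282 CPM in p21mTertCD and at 116 CPM in WT. Its log2 fold change was -0.15 ± 0.35 for p21mTert minus p21Het, and the high level was that of p21mTertCD_2 alone, whose CD8-gated cells were also the deepest, at a median of 11245 UMIs, and the richest in NK receptor genes. Whether these move Gzmm was not tested.

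Nkg7 was at 689.9, 613 and 615 CPM in p21Het, at 734, 987, 945, 828 and 1241 CPM in p21mTert, at 2028 and 827 CPM in p21mTertCD and at 757 CPM in WT. Every p21mTert library was above every p21Het library. The log2 fold change was 0.54 ± 0.24 (adjusted p = 0.999). Ifng was at 22.9, 21.2 and 7.95 CPM in p21Het, at 30.3, 39.5, 38.7, 36.3 and 57.4 CPM in p21mTert, at 74.1 and 24.3 CPM in p21mTertCD and at 33.03 CPM in WT, a log2 fold change of 1.19 ± 0.40 for p21mTert minus p21Het (adjusted p = 0.999). Fasl was at 48.9, 42.5 and 44.0 CPM in p21Het and at 63.3, 90.2, 63.6, 53.8 and 79.2 CPM in p21mTert, at 124 and 83.8 CPM in p21mTertCD and at 54.5 CPM in WT, a log2 fold change of 0.61 ± 0.18 for p21mTert minus p21Het. WT lay within the p21mTert range for Nkg7, Ifng and Fasl. Of all genes tested, 1.22% were lower in p21mTert without overlap. None of the 3 members without overlap passed the test.

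Prf1 was at 69.1, 68.5 and 77.6 CPM in p21Het, at 66.6, 109, 87.1, 86.8 and 133 CPM in p21mTert, at 226 and 141 CPM in p21mTertCD and at 81.9 CPM in WT. It was the one member for which both p21mTertCD libraries were above every p21mTert library, as 4.06% of all genes were. The log2 fold change was 1.32 ± 0.23 for p21mTertCD minus p21Het (adjusted p = 0.0713) and -0.92 ± 0.21 for p21mTert minus p21mTertCD (adjusted p = 0.124). Without p21mTertCD_1 these were 0.99 and -0.60 (adjusted p = 0.144 and 0.436), and without p21mTertCD_2 they were 1.58 and -1.19 (adjusted p = 0.0026 and 0.00743). Eomes was at 116, 114 and 106 CPM in p21Het, at 141, 108, 228, 132 and 143 CPM in p21mTert and at 198 and 157 CPM in p21mTertCD, and Tbx21 at 36.3, 43.4 and 41.0, at 40.6, 75.0, 47.7, 41.8 and 69.4 and at 63.3 and 70.6 CPM. In WT, Eomes was at 127 CPM and Tbx21 at 62.0 CPM. For Prf1, Eomes and Tbx21, WT was above every p21Het library. Between p21mTertCD and p21Het, 7 members had no overlap, and so had 13.3% of all genes in that direction.

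**Figure D4:**
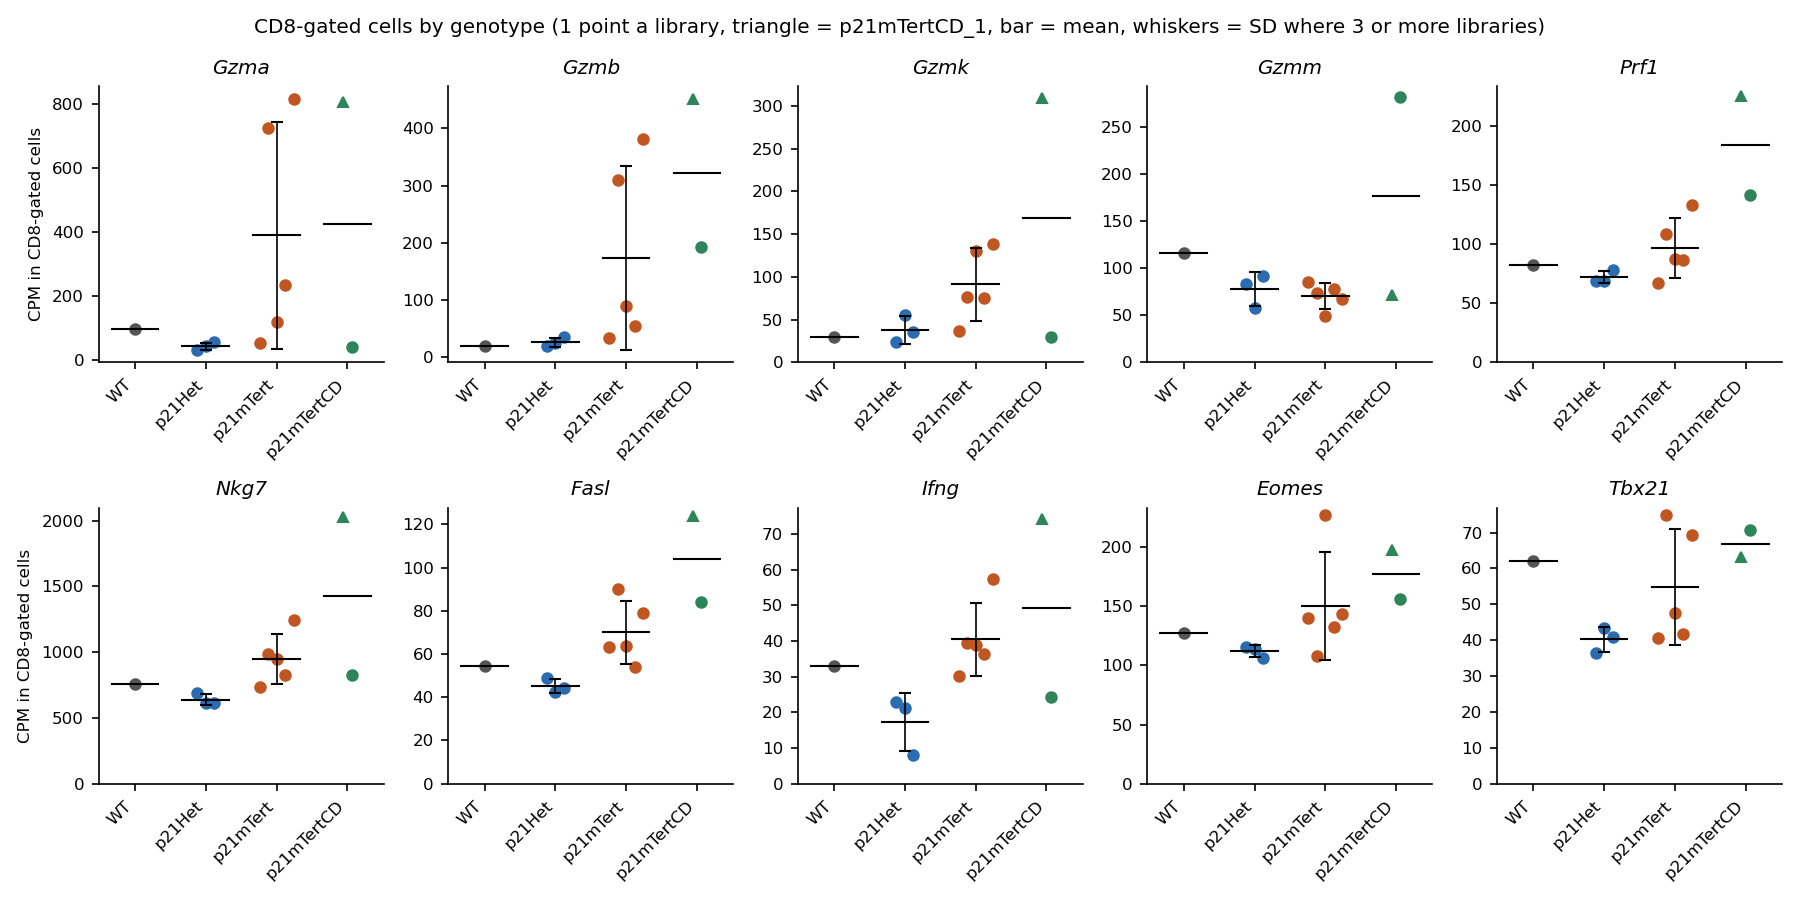
CPM in CD8-gated cells for each gene, by genotype, with 1 point for each library, a bar at the mean, whiskers for the SD where a group has 3 or more libraries and a triangle for p21mTertCD_1. Gzma and Gzmb in p21mTert are by far highest in 2 of 5 libraries, while p21mTert_3 and p21mTert_4 also lie above every p21Het library. The high Gzmm in p21mTertCD is that of 1 of 2 libraries.

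The 2 p21mTertCD libraries gave different accounts. Without p21mTertCD_2, so that p21mTertCD_1 alone stood for the genotype, 1350 of 10857 genes (12.4%) were called against p21Het (members Fasl, Gzma, Gzmb, Gzmk, Ifng, Nkg7 and Prf1) and 1018 (9.38%) against p21mTert (members Fasl, Gzmk, Nkg7 and Prf1). Without p21mTertCD_1, 33 (0.306%) and 57 genes (0.529%) of 10781 were called, and Gzmm was the member called in both, at 1.89 ± 0.22 against p21Het (adjusted p = 0.0044) and -2.04 ± 0.20 for p21mTert minus p21mTertCD (adjusted p = 0.000742). In that fit Gzma was at -0.083 against p21Het, from 3.23 ± 1.13 with both, and Gzmk at -0.36, from 2.06 ± 0.75 with both. A lone library is assumed to vary like those of the other groups, so these fits compare 1 library with a group.

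Of the pathway lists in CD8-gated cells, 2 genes were called for p21mTertCD minus p21Het. Cst7, an inhibitor of the cathepsins that activate granzymes, was higher by 0.89 ± 0.12 (162 ± 14.1 against 86.2 ± 6.50 CPM, SD, adjusted p = 0.0387). Ifngr2 was lower at -2.64 ± 0.39 (6.75 ± 3.81 against 42.6 ± 7.05 CPM, SD, adjusted p = 0.0418). Both were also called without p21mTertCD_1 (0.84 and -2.15, adjusted p = 0.0357 and 0.0413) and without p21mTertCD_2 (0.93 and -3.45, adjusted p = 0.00278 and 0.00115). Neither was called on leaving out any 1 of the 3 p21Het libraries (adjusted p of 0.126 to 0.19 for Cst7 and 0.126 to 0.196 for Ifngr2), with a term for deposit (0.0768 and 0.116) or in the later deposit alone (0.157 and 0.204). No gene was called in any of these 5 fits. Over 20 alternative fits the call was lost in 10 for Cst7 and 11 for Ifngr2, with log2 fold changes of 0.84 to 0.93 and of -3.45 to -1.92. No list gene was called for p21mTert minus p21Het. There, the 4 chemokines had a median log2 fold change of 0.55 and the 7 naive and memory genes one of -0.18, beside one near 0 over all genes tested.

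In NK-gated cells no member was called between genotypes. Gzma was at 6673, 8180.2 and 8787 CPM in p21Het, at 8739.7, 9213, 10248, 10617 and 9814 CPM in p21mTert and at 13171 and 7084 CPM in p21mTertCD. Gzmb was at 540.3, 1004 and 939.6 CPM in p21Het, at 668, 818, 696, 1001 and 893 CPM in p21mTert and at 1880.0 and 729.5 CPM in p21mTertCD. WT was at 10011 CPM of Gzma and 859 CPM of Gzmb. The replicated groups overlapped for both genes. Gzmk did not pass the filter on low counts, and of the 9 that did, none was called. In all, 2 of 7252 genes were called for p21mTert minus p21Het (0.0276%) and 0 for the other contrasts (0%), where DESeq2 called 43 and 0, and 607 and 481 genes were under 0.05 before adjustment. The log2 fold change for p21mTert minus p21Het was 0.32 ± 0.18 for Gzma, 0.13 ± 0.20 for Prf1 and -0.023 ± 0.29 for Gzmb. The p21mTertCD libraries held 54 and 60 NK-gated cells. Fasl and Tbx21 were higher in every p21mTert than p21mTertCD library, as were 12.2% of genes, and Fasl was lower in both p21mTertCD than in the p21Het libraries, as were 16.4%.

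In CD4-gated cells edgeR called no gene in any of the 3 contrasts (0% of 9517). DESeq2 called 14 (0.147%), 6 (0.063%) and 49 (0.515%), with Gzmk and Nkg7 among the 49 for p21mTertCD minus p21Het, and 597, 760 and 955 genes were under 0.05 in edgeR before adjustment. Nkg7 was at 164, 137 and 161 CPM in p21Het, at 312, 195, 227, 222 and 440.5 CPM in p21mTert, at 1614 and 252 CPM in p21mTertCD and at 209 CPM in WT. The p21mTert libraries were above those of p21Het, as for 3.22% of genes, and p21mTertCD_1 was far above all. Gzmk was at 12.1, 37.2 and 33.2 CPM in p21Het, at 71.2, 25.9, 66.9, 68.4 and 106 CPM in p21mTert, at 113 and 93.9 CPM in p21mTertCD and at 35.3 CPM in WT. Its log2 fold change was 1.16 ± 0.37 for p21mTert minus p21Het (adjusted p = 0.616) and 1.82 ± 0.42 for p21mTertCD minus p21Het (adjusted p = 0.203). In all, 4 members (Gzmk, Nkg7, Ifng and Eomes) had no overlap between p21mTertCD and p21Het, beside 11.5% of genes. In p21mTertCD_1, 68.6% of CD4-gated cells thinned to 1000 UMIs had an Nkg7 UMI, against 9.07% to 27.2% in the other libraries, and Prf1 was at 117 CPM there, against 4.40 to 38.4 CPM. Without p21mTertCD_2, 528 of 10199 genes (5.18%) were called for p21mTert minus p21mTertCD, with 5 members (Fasl, Gzmb, Nkg7, Prf1 and Tbx21). Between p21mTertCD and p21Het, 549 (5.38%) were called, with these 5, Gzmk and Ifng. Without p21mTertCD_1 no gene was called in these contrasts (0%), and Gzmk was at 1.65 for p21mTertCD minus p21Het (adjusted p = 0.757). Gzmm did not pass the filter in CD4-gated cells with all libraries.

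Over all filtered cells, a level depends on how many killer cells a library holds and on their RNA, and fewer cells of a type and less RNA per cell cannot be told apart there. With edgeR, Eomes was the one member called, for p21mTertCD minus p21Het. It was at 16.5, 9.80 and 13.3 CPM in p21Het, at 32.3, 22.4, 24.1, 20.4 and 19.4 CPM in p21mTert, at 40.5 and 37.2 CPM in p21mTertCD and at 20.2 CPM in WT. Its log2 fold change was 1.60 ± 0.22 (edgeR adjusted p = 0.0447), and 21 of 17503 genes (0.120%) were called, among them Cd3d, Cd3e, Lck, Ccl5 and Cst7. DESeq2 called 183 genes there (1.05%) and 8 members, all but Gzma and Prf1. The edgeR call of Eomes was lost on leaving out any 1 of 7 of the 10 libraries and stayed without p21Het_3, p21mTert_1 or p21mTertCD_2, with log2 fold changes of 1.46 to 1.75 over these fits. No gene was called without p21mTertCD_1, without p21Het_1 or in the later deposit alone. Without p21Het_3 there were 85 (0.487%), with Eomes and Tbx21, and without p21mTertCD_2 there were 97 (0.539%), with Eomes, Fasl, Gzmk, Ifng and Nkg7. Leaving out any other library gave 3 to 10. For p21mTert minus p21Het, edgeR called 2 genes (0.0114%) and DESeq2 31 (0.177%), with no member, and 5 members (Gzmk, Nkg7, Fasl, Eomes and Tbx21) had no overlap, beside 2.31% of all genes. For p21mTert minus p21mTertCD, edgeR called 1 gene (0.00571%) and no member, and DESeq2 called 587 (3.35%), with Eomes, Fasl, Gzmm and Nkg7. In CPM, Nkg7, Fasl, Eomes and Tbx21 were lower without overlap, beside 4.28% of genes. Without p21mTertCD_2, edgeR called 138 genes there (0.767%), with Gzmk and Nkg7. Between p21mTertCD and p21Het, 9 members, all but Gzma, were higher without overlap, beside 6.72% of genes.

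Shares of gated cells were compared with 2-sided exact permutation tests over libraries, with 9 tests adjusted together. CD8-gated cells were 4.73%, 4.91% and 5.44% of filtered cells in p21Het, 9.66%, 10.8%, 6.35%, 6.39% and 6.84% in p21mTert, 15.2% and 15.1% in p21mTertCD and 7.70% in WT. The 3 replicated genotypes did not overlap, and WT lay within the p21mTert range. The means were 5.03% ± 0.368 (SD, n = 3), 8.02% ± 2.09 (SD, n = 5) and 15.2% ± 0.0386 (SD, n = 2). For p21mTert minus p21Het the difference was 2.99 points (exact permutation p = 0.0714, adjusted 0.18), and for p21mTert minus p21mTertCD it was -7.16 points (exact permutation p = 0.0476, the smallest that 5 against 2 libraries can give, adjusted 0.18). For p21mTertCD minus p21Het it was 10.1 points (exact permutation p = 0.1, the smallest that 2 against 3 can give, adjusted 0.18), and 10.1 and 10.2 points without p21mTertCD_1 and p21mTertCD_2. NK-gated cells were 1.24 points more frequent in p21mTert than in p21mTertCD (exact permutation p = 0.0476, adjusted 0.18). None of the 9 shares passed the adjustment. With so few libraries none could have passed at 0.05, even if every pair of genotypes had been fully apart. The adjusted values therefore cannot decide whether the shares differ.

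**Figure D5:**
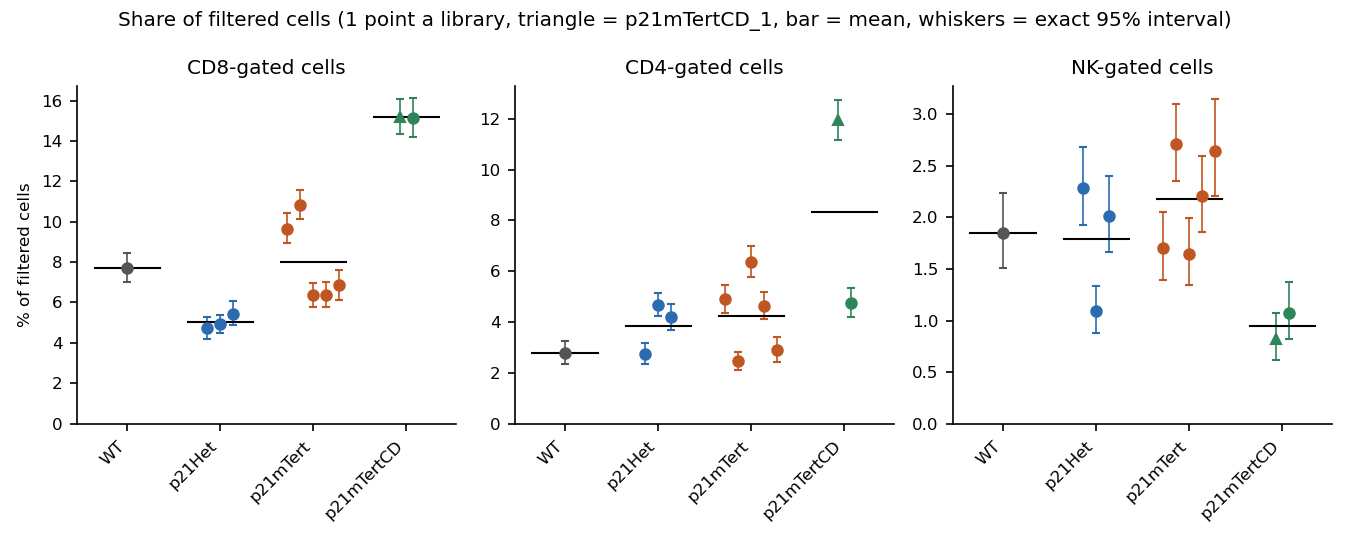
Percent of filtered cells in the CD8, CD4 and NK gates by genotype, with 1 point for each library, exact 95% binomial intervals as whiskers (counting error only), a bar at the mean and a triangle for p21mTertCD_1. In the CD8 panel the p21mTertCD libraries are at 15.2% and 15.1% and the 3 p21Het libraries at 4.73% to 5.44%.

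Genes whose levels followed a member most closely were found over 65 points (libraries by 6 lymphocyte gates of at least 20 cells), among 7563 genes with a mean of at least 10 CPM. The points share libraries and depth, so the values describe likeness only. For Gzma the nearest were Prf1 (Spearman rho 0.88), Serpinb9 (0.85) and Zyx (0.85), and for Gzmb they were Efhd2 (0.91), Serpinb9 (0.91) and Nkg7 (0.91). For Gzmk they were Themis (0.83), Sh3kbp1 (0.80) and Hdgfl3 (0.80). For Ifng they were AW112010 (0.93), Ptprc (0.91) and Rgs3 (0.91).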

How the data were processed

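Single-cell RNA-seq of dissociated lung gave 1 matrix of UMI counts for each of 11 libraries. Cell Ranger and mm10 are named in the submitters' processing notes, and the deposited counts are the authors' unnormalized UMI counts per gene and barcode. Here, barcodes were kept within 1000 to 30000 UMIs and up to 14% mitochondrial content, gated on markers and summed per library and gate (CPM). Sums were tested with edgeR 4.0.16 (quasi-likelihood, TMM, filterByExpr, Benjamini-Hochberg threshold 0.05), with DESeq2 1.42.0 as an alternative, in R 4.3.3. Genotype fits used the 10 replicated libraries, and gate fits used 11 with a library block. Doublets were limited by an other-lineage sum in the gates, and in an alternative by Scrublet in scanpy 1.11.5. Other alternatives changed the filter, deposit, gates, mitochondrial limit, thinning or the libraries. WT, with 1 library, entered no genotype test. The scripts were tested on simulated data. The members and lists were chosen with earlier results of these data known. At most 4 genes per list and comparison are named, those with the largest absolute log2 fold change among the called ones. Replicate numbers were not taken as a pairing in the main fits. Floors (3 counts) and binomial intervals (95%, exact) cover counting error only.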

Additional observations from a re-analysis of the deposited data

Results flagged for a closer look

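Of 43 groups of 4 to 10 libraries checked for 1 library far from the others, 2 stood out, and chance gives about 1 in 20. In NK-gated cells, Fasl was at 213 CPM in p21mTert_1, and the nearest p21mTert library was at 184. In CD4-gated cells, Ifng was at 98 CPM in p21mTert_3, and the nearest was at 41.3.

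Of 78 pairs of gates, 10 moved in opposite directions: in one gate every library of the first-named genotype was above the mean of the second, and in the other gate every one was below it. The difference between gates was not tested. The share of such pairs over all genes is not reported here, so the 10 have no background beside them. In p21mTertCD, the NK side of these pairs rests on 54 and 60 cells, with 51 and 56 Fasl UMIs. Values are log2(CPM + 1) differences between genotypes, and then the gap between gates. For Nkg7, p21mTert minus p21mTertCD was -0.474 in CD8- and 0.259 in NK-gated cells (gap -0.733), and -1.25 in CD4-gated cells (gap to NK -1.51). For p21mTertCD minus p21Het it was 1.02 in CD8- and -0.229 in NK-gated cells (gap 1.25), and 2.05 in CD4-gated cells (gap to NK 2.28). For Fasl, p21mTert minus p21mTertCD was -0.558 in CD8- and 0.483 in NK-gated cells (gap -1.04), and -0.58 in CD4-gated cells (gap to NK -1.06). For p21mTertCD minus p21Het it was 1.16 in CD8- and -0.344 in NK-gated cells (gap 1.5), and 1.05 in CD4-gated cells (gap to NK 1.39). For Eomes, p21mTertCD minus p21Het was 0.646 in CD8- and -0.565 in NK-gated cells (gap 1.21), and 1.34 in CD4-gated cells (gap to NK 1.9). Without p21mTertCD_1, the 4 pairs of p21mTert minus p21mTertCD were no longer opposite in every library: Nkg7 was at 0.172 in CD8-, 0.083 in CD4- and 0.379 in NK-gated cells, and Fasl at -0.28, 0.406 and 0.491. The 6 pairs of p21mTertCD minus p21Het kept their directions with p21mTertCD_2 as the only p21mTertCD library, with gaps of 0.412 to 1.43.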

How the results depend on the processing

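Counts are given as genes called, in this order: p21mTert minus p21Het, then p21mTert minus p21mTertCD, last p21mTertCD minus p21Het, unless a contrast is named, and the cause of each shift was not tested. In CD8-gated cells DESeq2 gave 4, 111 and 181, and no filter on low counts 8, 155 and 235. For p21mTert minus p21mTertCD there were 0 with a term for deposit, in the later deposit, without doublets and at a mitochondrial share of at most 8%, and 1 with stricter gates or without shared barcodes (an alternative chosen after seeing the data). For p21mTertCD minus p21Het there were 0 with a term for deposit and in the later deposit, and 14 at 8% mitochondrial share. In CD4-gated cells DESeq2 gave 14, 6 and 49, no filter 252, 337 and 426, and stricter gates 2 for p21mTertCD minus p21Het. In NK-gated cells no filter gave 118, 122 and 95 and DESeq2 43 for p21mTert minus p21mTertCD, while p21mTert minus p21Het had 1 in the later deposit and 0 with stricter gates. In all filtered cells DESeq2 gave 31, 587 and 183. There p21mTert minus p21Het had 5 with no filter and 1 with a term for deposit or in the later deposit. For p21mTert minus p21mTertCD there were 3 in the later deposit and 2 at 8% mitochondrial share. For p21mTertCD minus p21Het there were 5 with DESeq2 size factors, 9 with a term for deposit, 0 in the later deposit and 7 without doublets. Thinning to 1000 UMIs left 1127 (NK minus CD8), 1013 (CD8 minus CD4) and 490 (Gzmk split) genes.

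Members called in CD8-gated cells were 1 (Gzmb), 2 and 8 with no filter, where 0.0423%, 0.820% and 1.24% of 18893 genes were called, and 0, 2 and 4 with DESeq2. In CD4-gated cells they were 4, 7 and 8 with no filter (1.38%, 1.85% and 2.34% of 18223 genes), and 2 with DESeq2 for p21mTertCD minus p21Het. In NK-gated cells no filter gave 0, 1 and 2 (0.746%, 0.771% and 0.600% of 15823 genes). In all filtered cells DESeq2 gave 4 for p21mTert minus p21mTertCD and 8 for p21mTertCD minus p21Het, where no filter gave 2 (0.109% of 24796 genes), and DESeq2 size factors and the later deposit gave 0.

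With the replicate block, possible only in the later deposit, the genes called were 22 (0.217% of 10157), 122 (1.20%) and 69 (0.679%) in CD8-gated cells, 3 for p21mTert minus p21mTertCD in NK-gated cells and 0, 0 and 0 in all filtered cells. Members called were 2 (Gzma, adjusted p = 0.0336, and Gzmb, adjusted p = 0.00807), 3 (Gzma, Gzmk and Gzmm) and 2 (Gzmb and Gzmm) in CD8-gated cells and 0 for p21mTertCD minus p21Het in all filtered cells. Numbers 1, 4 and 5 are there p21mTertCD_1, p21mTert_4 and p21mTert_5 alone, so the block removes these libraries from the contrasts. The contrast of p21mTert minus p21Het then rests on numbers 2 and 3, with few libraries left to measure the spread. Both p21mTertCD contrasts rest on p21mTertCD_2 as the only library of that genotype. In CD8-gated cells the block turned p21mTert minus p21mTertCD to 0.032 for Fasl, 0.29 for Nkg7, 0.98 for Ifng, 0.30 for Gzmb, 0.010 for Tbx21, 3.67 for Gzma and 1.75 for Gzmk, and p21mTertCD minus p21Het to -1.04 for Gzma and -0.58 for Gzmk. Same-numbered libraries correlated at -0.56 to 0.19 in their deviations, and differently numbered ones at -0.62 to 0.62. With 2 later libraries in p21Het and in p21mTertCD, many of these values mirror each other. They show no pairing by number and cannot exclude one. Gzma, p21mTert minus p21mTertCD, was 0.013 with a term for deposit and 0.18 in the later deposit. Ifng, CD8 minus CD4, was 0.036 after thinning.

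For shares of cells, the CD8 difference of p21mTert minus p21Het was 4.71 points among Ptprc-positive cells (exact permutation p = 0.0179, unadjusted and the smallest that 5 against 3 libraries can give). In the later deposit, p21mTert minus p21mTertCD was -7.57 points for CD8 and 1.35 for NK (exact permutation p = 0.0667 for both). The CD4 share of p21mTert minus p21Het was -0.332 points in the later deposit and -0.00279 with the replicate block.

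Leaving out each library in turn moved the CD8 share difference from 2.28 to 3.40 points (p21mTert minus p21Het) and from -7.86 to -6.75 (minus p21mTertCD), the CD4 one from -0.172 to 0.836 and the NK one (minus p21mTertCD) from 1.10 to 1.37. Genes called ranged from 0 to 5, 0 to 1018 and 0 to 1350 in CD8-gated cells, from 0 to 528 and 0 to 549 for the p21mTertCD contrasts in CD4-gated cells, from 0 to 3 and 0 to 1 for the p21mTert contrasts in NK-gated cells, and from 1 to 7, 1 to 138 and 0 to 97 in all filtered cells. Members called in the p21mTertCD contrasts ranged from 0 to 4 and 0 to 7 in CD8-gated, 0 to 5 and 0 to 7 in CD4-gated and 0 to 2 and 0 to 5 in all filtered cells. For p21mTert minus p21mTertCD in CD8-gated cells, Nkg7 ranged from -1.06 to 0.15, Gzmm from -2.04 to 0.028, Ifng from -0.84 to 0.67, Gzma from -1.03 to 3.20 and Gzmk from -1.73 to 1.54. For p21mTertCD minus p21Het, Gzmm ranged from -0.17 to 1.89, Gzma from -0.083 to 4.15 and Gzmk from -0.36 to 2.91. The upper counts came without p21mTertCD_2, except 3, which came without p21mTert_5; the first 5 was also reached without p21mTertCD_1.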
